A study of Mus musculus with 12 samples.

Results

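The 9 genes described here are transcripts by which mouse embryonic stem cells (ESCs) are usually recognized, or which mark early progenitors, and they were taken by name from a table of 26190 genes. All 9 were found in it. Pou5f1 (Oct4), Nanog, Zfp42 (Rex1), Esrrb and Klf4 encode transcription factors of the pluripotent state, Dnmt3b a de novo DNA methyltransferase, Lin28a and Lin28b RNA-binding proteins, and Sall4 a zinc finger transcription factor. RNA-seq covered 12 libraries, with 3 biological replicates for each of 4 groups. Tissue came from E11.5 mouse embryos (E11.5H), cut into atria and ventricles, and from heart organoids (HOs) after 13 days of culture, cut into an atrium-like and a ventricle-like part. HOs are beating structures grown from embryoid bodies of mouse ESCs on a gel of laminin and entactin with FGF4, with BMP4, the GSK3 inhibitor BIO and leukemia inhibitory factor (LIF) added for the last days. The labels give the strain of all 12 samples as C57BL/6, while the methods of the study name ESC lines from C57BL/6 and from a hybrid of C57BL/6 and JF1, and which line gave which HO is not given in the sources used here. No undifferentiated ESCs were among these 12 libraries, so levels below are set against the embryonic heart and not against ESCs.

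Pluripotent cells keep a self-sustaining circuit in which Oct4, Sox2, Nanog and Esrrb activate each other, and this circuit shuts down as cells enter the germ layers. LIF acts through Stat3 and supports the circuit by way of Klf4 and related factors, which is why it is added to mouse ESC cultures. Lin28 proteins belong to a later layer of control, since they block the maturation of let-7 microRNAs and stay on in early progenitors of many tissues. Sall4 is used by ESCs, germ cells, fetal liver and limb progenitors, and its family is known for roles in limb, kidney and heart development.

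Libraries held 23971258 to 30540993 fragments in genes, so that a count of 0 allowed up to 0.0982 to 0.125 CPM (counts scaled to library size), taking 3 counts as the limit of counting error. Levels are given as FPKM, fragments scaled by the authors to transcript length and library size, which can be compared between genes. Replicates of E11.5H correlated at r = 0.983 to 0.989 across genes within a group, whereas those of HOs correlated at 0.821 to 0.937, so the HO libraries differed more among themselves. All 16 cardiomyocyte markers were above 1 CPM in every library, but their mean log2 CPM was 4.93 to 8.38 in HOs and 9.52 to 10.35 in E11.5H. Markers of the hepatoblast and visceral endoderm, 12 genes such as Afp, had a mean log2 CPM of -0.20 to 0.36 in E11.5H and of 0.91 to 8.40 in HOs, and 12 gut epithelium markers such as Epcam had 1.11 to 1.36 and 2.94 to 8.36. These are bulk samples, in which fewer cells of a type and less RNA per cell cannot be told apart.

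The RNA targets of the Lin28 proteins are shown first, because the genes they act on are described below. RefSeq (GRCm38.p6) lists 8 distinct mature let-7 sequences of the 5′ arm, and all 8 share a single seed, the bases 2 to 8 by which a microRNA pairs with its messengers. Capitals mark the seed in 3 of them, which differ outside it.
mmu-let-7a-5p: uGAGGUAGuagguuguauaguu
mmu-let-7d-5p: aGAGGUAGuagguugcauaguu
mmu-let-7e-5p: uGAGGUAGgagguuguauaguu

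Lin28 proteins bind the precursor hairpins at the motif GGAG, which lies ahead of the 3′ arm. The motif stood between the arms in 9 of the 11 let-7 hairpins of RefSeq, and Mirlet7b and Mirlet7c-2 lacked these letters there. The hairpin with the motif in capitals (Mirlet7g, chr9:106178840-106178927, + strand) and the one without (Mirlet7b, chr15:85707319-85707403, + strand) are given side by side.
Mirlet7g: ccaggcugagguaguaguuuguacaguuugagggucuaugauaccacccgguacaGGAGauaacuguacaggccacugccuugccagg
Mirlet7b: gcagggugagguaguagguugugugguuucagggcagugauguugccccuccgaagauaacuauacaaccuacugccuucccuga
The 12 rows of let-7 and Mir98 hairpins in the table held 0 counts in all libraries, which says nothing of mature let-7 in libraries of this kind.

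Promoter windows of 300 bases (250 before and 50 after the start) were listed by RefSeq for 8 of the 9 genes, not for Sall4. Each was searched on both strands for ATGCAAA, 7 bases of the octamer that Oct4 binds, and for GGGCGG, the GC box that Sp and Klf factors bind. The octamer letters were in 4.63% of all 32851 windows and the GC box in 35.7%, and no base was shared by both motifs in the windows of these genes. Nanog and Zfp42 held the octamer letters, and the other 6 genes did not. The windows of Nanog (chr6:122707239-122707538, + strand) and Zfp42 (chr8:43306960-43307259, - strand) are shown as 2 genes with octamer letters that were nearly silent here, with every match in capitals. The window of Zfp42 also held 2 GC boxes.
Nanog: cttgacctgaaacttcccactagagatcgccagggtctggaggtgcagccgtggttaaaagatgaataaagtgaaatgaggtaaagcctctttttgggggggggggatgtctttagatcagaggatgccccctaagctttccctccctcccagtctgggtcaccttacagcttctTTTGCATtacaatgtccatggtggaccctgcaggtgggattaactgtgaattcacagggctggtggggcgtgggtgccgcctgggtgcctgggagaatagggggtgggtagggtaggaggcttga
Zfp42: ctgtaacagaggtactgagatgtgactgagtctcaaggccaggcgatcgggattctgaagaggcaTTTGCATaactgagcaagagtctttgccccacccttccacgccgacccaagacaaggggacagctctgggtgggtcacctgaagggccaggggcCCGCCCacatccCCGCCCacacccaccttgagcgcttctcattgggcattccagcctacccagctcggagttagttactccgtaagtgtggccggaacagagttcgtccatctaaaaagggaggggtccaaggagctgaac
The window of Klf4 (chr4:55532426-55532725, - strand), a gene that rose in HOs, held no octamer letters but 4 GC boxes (in capitals) and 40 CpG dinucleotides, more than 96.1% of all windows, whose median was 7. That of Nanog had 4 CpGs. The window of Dnmt3b, a gene that fell in HOs, also held 4 GC boxes, with 30 CpGs, more than 88.3% of all windows. Any tie between these letters and the levels was not tested.
Klf4: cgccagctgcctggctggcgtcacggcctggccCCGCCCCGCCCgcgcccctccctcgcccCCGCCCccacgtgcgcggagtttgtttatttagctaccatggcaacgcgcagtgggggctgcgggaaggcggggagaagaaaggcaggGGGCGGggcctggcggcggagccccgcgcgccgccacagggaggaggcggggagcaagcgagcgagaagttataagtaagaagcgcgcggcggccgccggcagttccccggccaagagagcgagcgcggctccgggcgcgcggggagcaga

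Of the genes of the core circuit, Pou5f1 and Nanog were at or near the detection limit, and Esrrb was low. Sox2, their partner in ESCs that is also used by neural and endodermal progenitors, had 0.0120 to 0.379 FPKM in E11.5H, 0.0142, 0.622 and 1.13 FPKM in atrium-like parts and 0.0495, 1.49 and 3.73 FPKM in ventricle-like parts. Pou5f1 (chr17:35506032-35510777, + strand) had 0, 0 and 0.5 fragments in atria and 0 in all ventricles of E11.5H. In HOs it had 0.5, 0 and 1.5 fragments in atrium-like parts and 0, 5 and 0 in ventricle-like parts. The highest level was 0.106 FPKM, in replicate 2 of the ventricle-like parts, where 3 fragments correspond to 0.0636 FPKM. Pou5f1 was thus under the limit of 3 fragments in 11 of 12 libraries and just above it in that one, and no fold change is given. In 3 of the 12 libraries its fragments were not whole numbers, as happens when reads are shared with related loci. This was also seen in 3 libraries for Nanog, in 4 each for Lin28a and Dnmt3b, and in 1 each for Klf4 and Sall4.

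Nanog (chr6:122707489-122714633, + strand) was traced at 0.126, 0.119 and 0.206 FPKM in atria and 0.0835, 0.221 and 0.166 FPKM in ventricles of E11.5H, from 6 to 16 fragments per library. Atrium-like parts had 0.0126, 0 and 0.00914 FPKM, less than 1 fragment each. Ventricle-like parts had 0.0102, 0.0819 and 0.124 FPKM, with 9 fragments at most. The HO libraries were therefore not above the embryonic heart for this gene, and the embryonic values themselves rested on few fragments. Nanog passed the filter on low counts only in the comparison of E11.5H chambers and in the fit over all libraries, and its log2 difference between atria and ventricles was -0.13 (SE 0.78, edgeR adjusted p = 0.940).

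Zfp42, a marker of naive ESCs that is also used by trophoblast and germ cells, had no fragment in any of the 6 libraries of E11.5H (chr8:43295067-43307009, - strand). A count of 0 there allowed up to about 0.0493 FPKM in atria and 0.0533 FPKM in ventricles. In atrium-like parts its level was 0, 0 and 0.563 FPKM, and in ventricle-like parts 0, 0.119 and 0.137 FPKM. It was detected in 3 of 6 HO libraries, with 33 fragments in replicate 3 of the atrium-like parts and 7 and 8 in replicates 2 and 3 of the ventricle-like parts. Those 3 libraries also had the most Tfap2c, a transcription factor of trophoblast and germ cells, at 9.19, 4.90 and 2.01 FPKM, against 0.365 to 0.846 FPKM in the other HO libraries. The 10 primordial germ cell markers, Tfap2c among them, had a mean log2 CPM of 0.10 to 0.36 in E11.5H and of 0.48 to 1.70 in HOs. Tfap2c and Prdm1 were called higher in both HO parts, where 16.0% and 11.6% of all genes tested were. Tfap2c was at most 0.0387 FPKM in E11.5H, so it passed the filter on low counts only through HOs and could only be called higher. The same held for Prdm1 in the atrial comparison, since it had 0.00543, 0.188 and 0 FPKM in atria. Prdm1, which is also used by endoderm, had 0.898 to 10.9 FPKM in HOs and at most 0.190 FPKM in E11.5H, and Kit 0.472 to 17.6 FPKM against 2.41 to 4.04 FPKM. Prdm1 was highest in replicate 1 and Kit in replicate 2 of the atrium-like parts, which both had no fragment of Zfp42. The germ cell markers Dppa3, Prdm14 and Dazl were at or below 0.361 FPKM in all 12 libraries. The part of trophoblast or germ cells in the Zfp42 signal was not tested.

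Esrrb, an orphan nuclear receptor of the ESC circuit that is related to receptors of energy metabolism in the heart, was low but measurable (chr12:86361117-86521628, + strand). Atria of E11.5H had 0.208, 0.206 and 0.213 FPKM and ventricles 0.567, 0.503 and 0.330 FPKM. Atrium-like parts of HOs had 0, 0.0447 and 0.0997 FPKM and ventricle-like parts 0.139, 0.404 and 0.240 FPKM. All ventricular libraries lay above all atrial ones in E11.5H, and all ventricle-like ones above all atrium-like ones in HOs. Groups that did not overlap were seen for 33.1% of the genes tested in E11.5H and for 13.3% in HOs, and for 2.29% in both with the same direction. The log2 difference was -1.22 (SE 0.47) in E11.5H with an adjusted p of 0.122, and -2.28 (SE 1.33) in HOs with an adjusted p of 0.750 (edgeR), so neither was called. Its interaction of chamber and tissue was -1.04 with a 95% interval of -4.01 to 1.92.

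**Figure D1:**
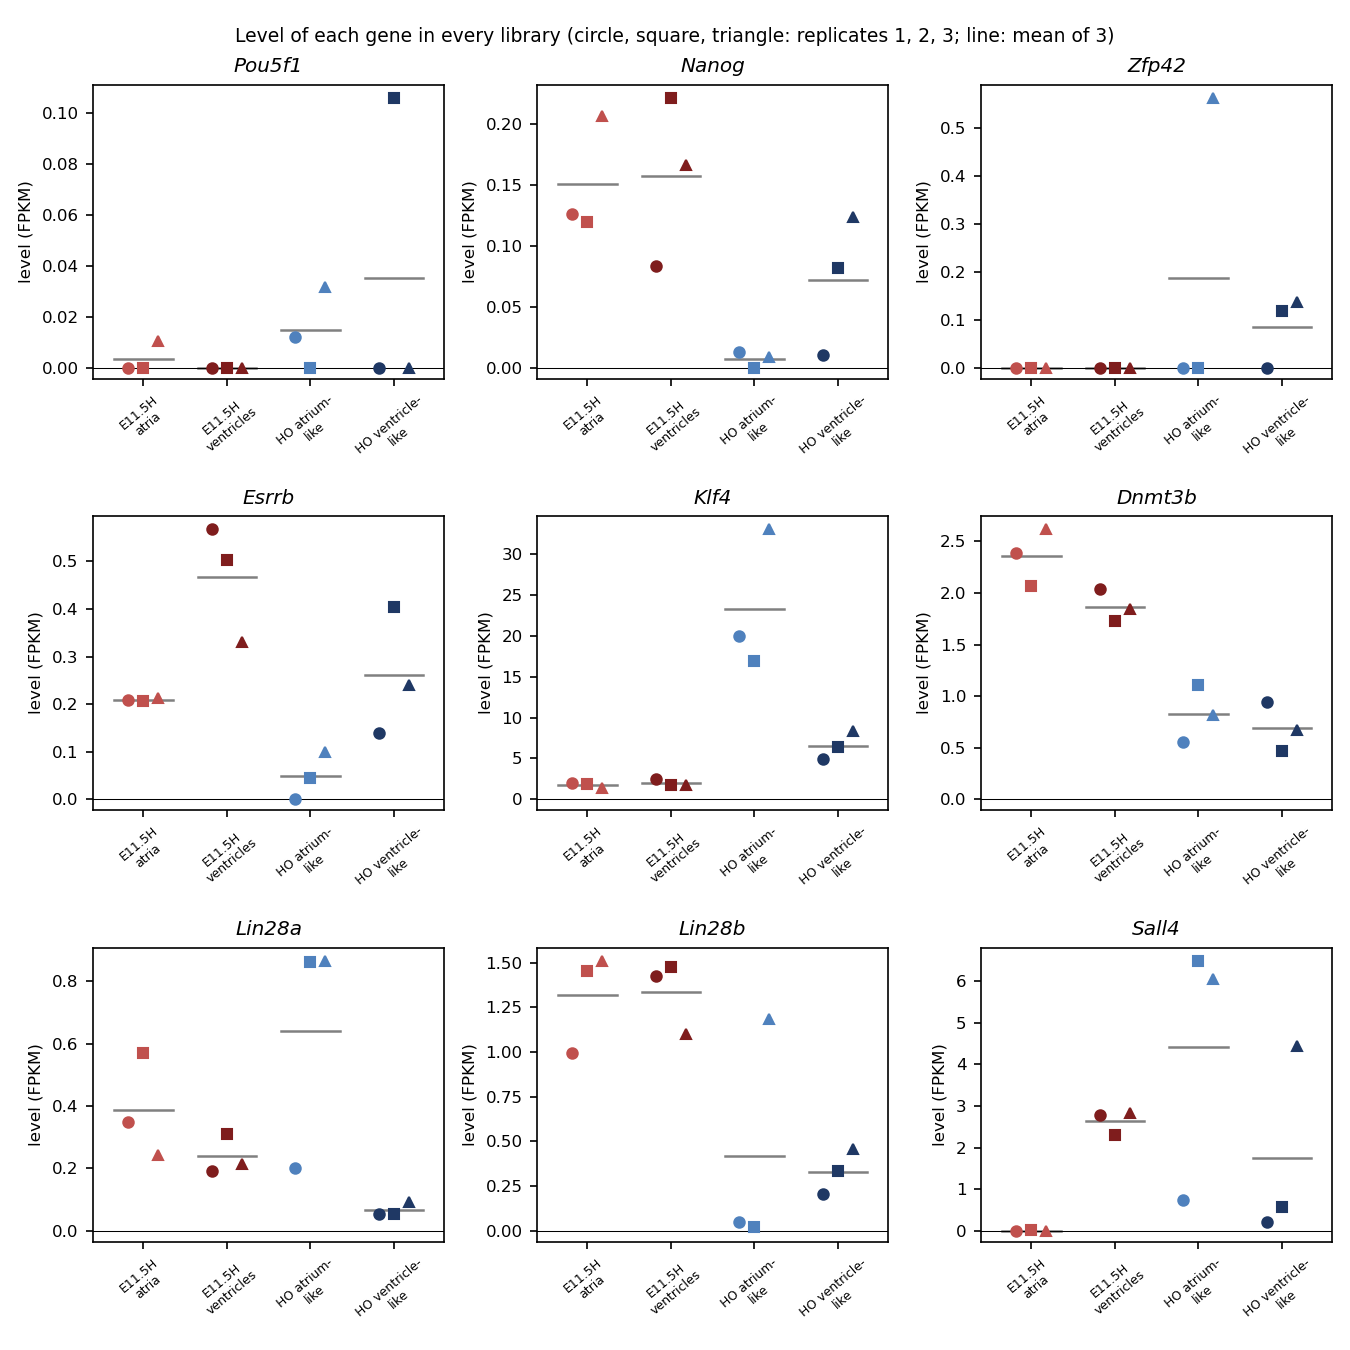
Level of the 9 genes in FPKM (linear axes that differ between panels) in each of the 12 libraries, grouped by tissue and chamber, with a line at the mean of 3. Pou5f1 stays at or below 0.106 FPKM, Klf4 is the gene that is higher in every HO library than in every E11.5H library, and Sall4 is near 0 in atria of E11.5H only.

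Klf4 (chr4:55527137-55532475, - strand) was the member that was called higher in both HO parts. It is a zinc finger factor that LIF signaling sustains in ESCs and that is also known from the epithelium of gut and skin. Atria of E11.5H had 2.05, 1.82 and 1.41 FPKM and ventricles 2.52, 1.77 and 1.72 FPKM. Atrium-like parts had 19.9, 16.9 and 33.1 FPKM and ventricle-like parts 4.95, 6.40 and 8.32 FPKM. Every HO library was above every library of E11.5H, a pattern without overlap that 29.7% of the genes tested in both comparisons also showed in one direction or the other.

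Mean Klf4 was 13.2 times as high in atrium-like parts (23.3 ± 8.60 FPKM, SD, n = 3) as in atria (1.76 ± 0.327), with a log2 fold change of 3.91 (SE 0.36, edgeR adjusted p = 0.00201). In ventricle-like parts (6.56 ± 1.69) it was 3.27 times as high as in ventricles (2.005 ± 0.447), with a log2 fold change of 1.62 (SE 0.29, edgeR adjusted p = 0.0112). A gene was called when its adjusted p was below 0.05 and its log2 fold change beyond 1 in size. Of the 5 members tested besides Sall4, 1 was called higher and 1 lower in atrium-like parts, where 16.0% of all genes tested were called higher and 8.81% lower. In ventricle-like parts 1 of 5 was called higher and 2 lower, where the shares of all genes were 11.6% and 7.35%. The call for ventricle-like parts was lost without replicate 2 or replicate 3 of the ventricles (edgeR adjusted p = 0.0641 and 0.0597), with log2 fold changes of 1.51 and 1.52.

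Within HOs, Klf4 was 3.55 times as high in atrium-like as in ventricle-like parts. The groups did not overlap, as for 13.3% of the genes tested. The log2 difference was 2.02 with a 95% interval of 1.14 to 2.91, but it was not called by edgeR (adjusted p = 0.750), where 0% of the 15703 genes tested were called, against 889 at an unadjusted p below 0.05. DESeq2 called 72 genes in this comparison, Klf4 among them (adjusted p = 0.00232). In E11.5H the chambers overlapped, with a log2 difference of -0.25 (SE 0.26, edgeR adjusted p = 0.600). The interaction of chamber and tissue was 2.27 (95% interval 1.30 to 3.25, edgeR adjusted p = 0.114) and was called with DESeq2 (adjusted p = 0.000238), while 0.152% of all genes were called by edgeR.

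Gut epithelium markers were higher in HOs too, and their order over the HO libraries was close to that of Klf4 without being the same. Both were highest in replicates 1 and 3 of the atrium-like parts. Among ventricle-like parts, replicate 3 had the most of both. Their mean log2 CPM was 8.36, 6.84 and 8.31 in atrium-like parts, and 5.34, 2.94 and 7.72 in ventricle-like parts. All 12 markers were above 1 CPM in every HO library except replicate 2 of the ventricle-like parts, where 9 were, and 4 or 5 were in E11.5H. That library had 5.67 FPKM of Epcam, an epithelial adhesion molecule that was at most 0.496 FPKM in E11.5H, and 0 of the intestinal factor Cdx2, and its Klf4 was 6.40 FPKM, above all libraries of E11.5H. The part of epithelial cells in the level of Klf4 was not tested.

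**Figure D2:**
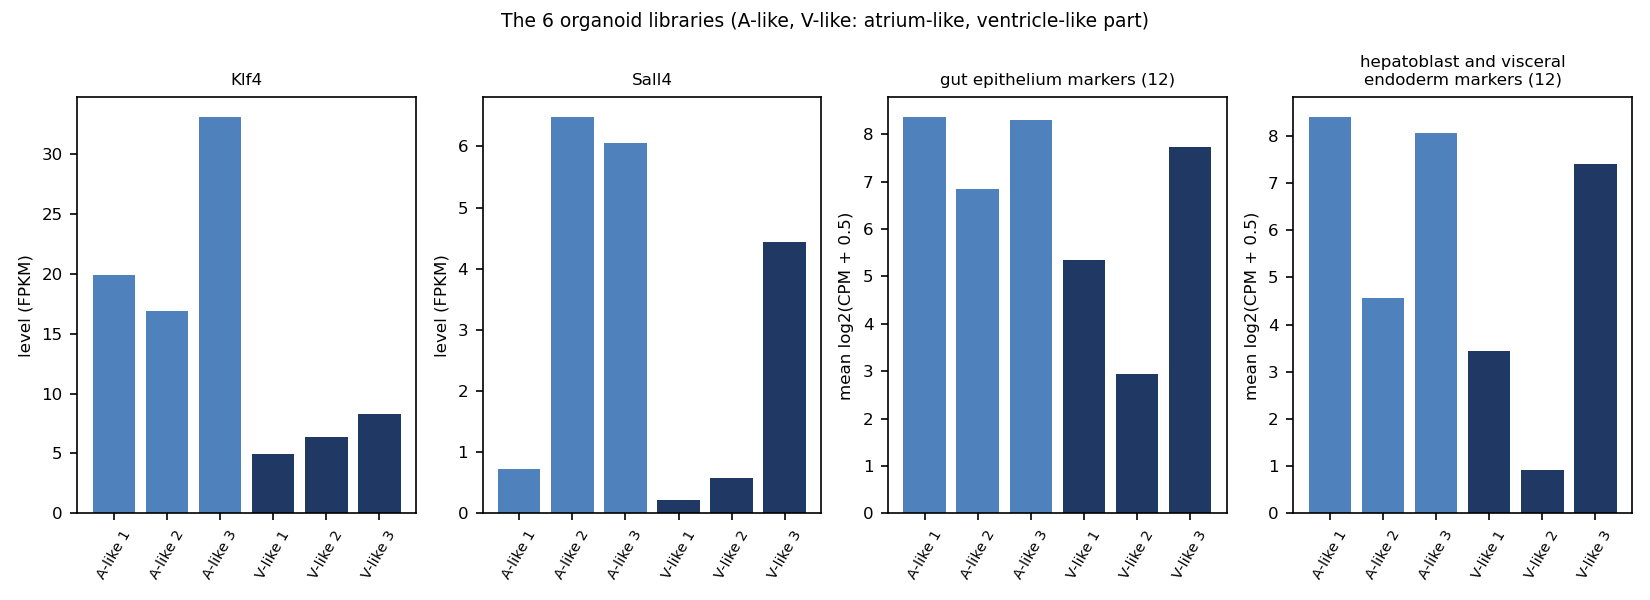
Klf4 and Sall4 in FPKM and the mean log2(CPM + 0.5) of 12 gut epithelium and 12 hepatoblast and visceral endoderm markers in the 6 HO libraries, each bar 1 library. Klf4 is higher in the 3 atrium-like than in the 3 ventricle-like libraries, the endodermal markers are lowest in ventricle-like replicate 2, and Sall4 follows neither order, with 0.730 FPKM in the library that is highest for both marker lists.

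Of 9 other Klf genes, 6 were called higher in atrium-like parts and 4 in ventricle-like parts, with none lower, where 16.0% and 11.6% of all genes were called higher, and their median log2 fold changes were 1.29 and 0.996 against 0.06 and 0.09 over all genes. Klf5, which works beside Klf4 in ESCs and is a gut epithelium factor too, had 1.79, 1.325 and 1.54 FPKM in atria and 1.54, 1.31 and 0.608 FPKM in ventricles. It reached 86.1, 32.9 and 59.7 FPKM in atrium-like and 22.2, 21.7 and 52.8 FPKM in ventricle-like parts, with log2 fold changes of 5.49 (SE 0.51, edgeR adjusted p = 0.00203) and 4.72 (SE 0.55, edgeR adjusted p = 0.00336). These levels made Klf5 more abundant than Klf4 in every HO library, whereas in the embryonic heart it was below Klf4 in 5 of 6 libraries.

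Of the 24 other genes of naive pluripotency, 12 in atria and 11 in ventricles of E11.5H had at most 3 fragments in every library, against 4 in each HO group. Only 9 and 8 of them could be tested, and 5 were called higher in each comparison, with none lower (median log2 fold change 1.81 and 2.35). Of all genes tested, 16.0% and 11.6% were called higher. A gene near 0 in the embryo passes the filter only through HOs and can only be called higher, which raises these counts and medians. The called genes with the highest levels were Stat3, Klf5, Socs3 and Tbx3, and the fifth, named after its values were seen, was Tdgf1, a coreceptor for Nodal. Tdgf1 was such a gene, with at most 0.0154 FPKM in atria and 0.0971 FPKM in ventricles. Stat3, the transcription factor that LIF activates, had a mean of 56.8 ± 23.5 FPKM in atrium-like parts against 20.0 ± 1.28 FPKM in atria, and 78.8 ± 24 against 19.4 ± 1.64 FPKM in the ventricular groups. Its inhibitor and direct target Socs3 had 19.0, 83.3 and 40.9 FPKM in atrium-like and 53.3, 87.2 and 28.3 FPKM in ventricle-like parts, while E11.5H had 2.49 to 3.94 FPKM. The log2 fold changes of Socs3 were 3.87 (SE 0.49) and 4.13 (SE 0.43), with edgeR adjusted p-values of 0.00437 and 0.00262. Stat3, Socs3, Klf5 and Tbx3 are all used outside pluripotent cells, Tbx3 in the conduction system of the heart. LIF was in the HO medium and its part in these levels was not tested.

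Tbx3 was the gene of this list that also differed between embryonic chambers, with 11.7, 10.4 and 7.71 FPKM in atria and 3.15, 4.72 and 3.66 FPKM in ventricles (log2 difference 1.30, SE 0.19, edgeR adjusted p = 0.00118). It had 14.2, 21.8 and 17.8 FPKM in atrium-like parts and 10.5, 40.7 and 14.0 FPKM in ventricle-like parts. Among 12 genes of the primed epiblast, 2 were called higher and 2 lower of 5 tested in atrium-like parts, against 16.0% and 8.81% of all genes. Lefty1, an inhibitor of Nodal, rose from 0.455 ± 0.203 FPKM in atria to 2.09 ± 0.696 FPKM in atrium-like parts (log2 fold change 2.34, edgeR adjusted p = 0.0255).

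**Figure D3:**
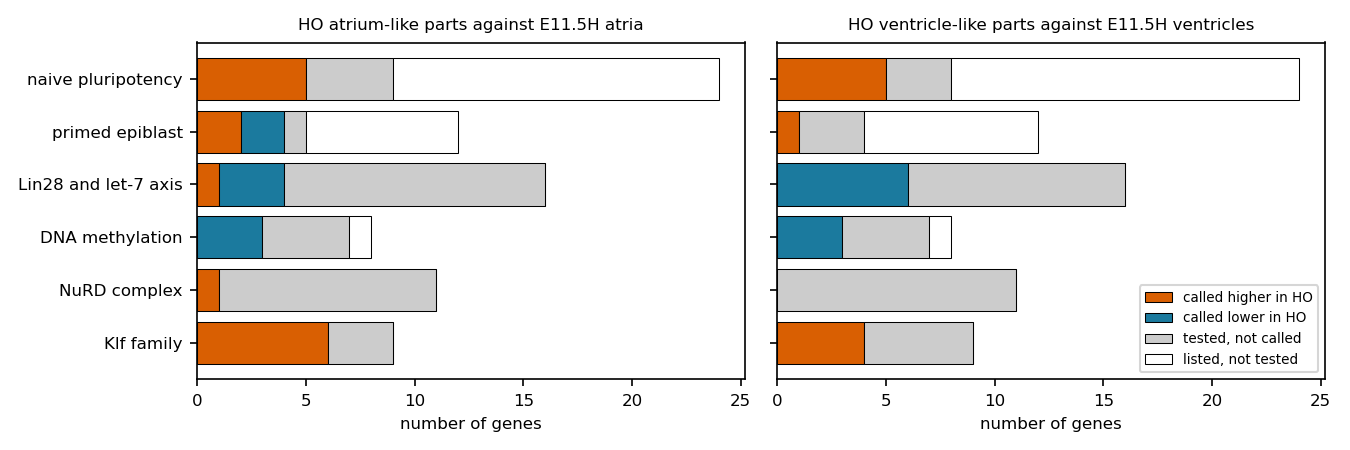
Number of genes called higher, called lower, tested but not called, and listed but not tested in 6 gene lists, for HO atrium-like parts against E11.5H atria (left) and HO ventricle-like parts against E11.5H ventricles (right). Naive pluripotency and Klf genes that were called are all higher in HOs (5 and 6 on the left, 5 and 4 on the right), and the called DNA methylation genes are all lower (3 in each).

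Dnmt3b, which sets new DNA methylation in the epiblast and early embryo, fell in HOs (chr2:153649449-153687730, + strand). Atria of E11.5H had 2.38, 2.07 and 2.62 FPKM and ventricles 2.04, 1.73 and 1.85 FPKM. Atrium-like parts had 0.557, 1.10 and 0.820 FPKM and ventricle-like parts 0.939, 0.467 and 0.672 FPKM. All HO libraries were below all libraries of E11.5H, where 29.7% of the genes tested did not overlap in one direction or the other.

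The log2 fold change of Dnmt3b was -1.37 (95% interval -2.16 to -0.57, edgeR adjusted p = 0.0246) between atrium-like parts and atria and -1.52 (95% interval -2.44 to -0.59, edgeR adjusted p = 0.0307) between ventricle-like parts and ventricles. Leaving out any 1 library of E11.5H, or replicate 3 of the atrium-like parts, ended the call (edgeR adjusted p = 0.0532 to 0.117), with the fold change between -1.29 and -1.59. The embryonic atria lay just above the ventricles, but the difference of 0.27 (95% interval -0.15 to 0.68) was not called (edgeR adjusted p = 0.408). The chambers of HOs overlapped, and the interaction was 0.13 (95% interval -0.91 to 1.17).

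Of 8 other genes of DNA methylation 7 were tested. Dnmt1, Uhrf1 and Tet1 were called lower in each HO part, where 8.81% and 7.35% of all genes were, and the other 4 were not called, with median log2 fold changes of -0.93 and -0.89. Uhrf1, which guides the maintenance methylase Dnmt1 to replicating DNA, had 40.2 ± 7.49 FPKM in atria and 8.49 ± 5.40 FPKM in atrium-like parts (log2 fold change -2.13, edgeR adjusted p = 0.0110). In ventricles it had 47.9 ± 4.12 FPKM and in ventricle-like parts 9.77 ± 1.85 FPKM (log2 fold change -2.38, edgeR adjusted p = 0.00136). Dnmt1 fell from 23.5 ± 1.70 to 6.75 ± 5.07 FPKM and from 24.3 ± 0.799 to 8.85 ± 1.035 FPKM in the same comparisons. Tet1, an enzyme that oxidizes methylated cytosine, fell from 3.53 ± 0.221 to 1.04 ± 0.526 FPKM and from 3.201 ± 0.0577 to 1.53 ± 0.201 FPKM.

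Proliferation genes fell too, since 9 of 10 were called lower in atrium-like and 10 of 10 in ventricle-like parts, against 8.81% and 7.35% of all genes. Their mean log2 CPM was 5.03 to 6.39 in HOs and 7.41 to 7.68 in E11.5H. The part of slower division in the level of Dnmt3b was not tested. The 3 genes whose profile over the 12 libraries was most like that of Dnmt3b, by the root mean square difference of centred log2 CPM among 15590 expressed genes, were Foxp1 (0.19), Rfc5 (0.21) and Dek (0.21). Rfc5 is a subunit of the clamp loader of DNA replication.

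Lin28b was the more abundant Lin28 gene of the embryonic heart (chr10:45376619-45470201, - strand). Its level was 0.994, 1.46 and 1.51 FPKM in atria and 1.43, 1.47 and 1.10 FPKM in ventricles of E11.5H, with no difference between the chambers past the replicate spread (log2 difference -0.08, 95% interval -0.60 to 0.43). In ventricle-like parts it was 0.204, 0.334 and 0.457 FPKM, below every ventricle. The log2 fold change there was -2.10 (SE 0.43, edgeR adjusted p = 0.0166), and it lost its call without any 1 library of the ventricles (edgeR adjusted p = 0.0633 to 0.0824) and with all 12 libraries in 1 fit (edgeR adjusted p = 0.182). On the log2(FPKM + 1) scale, which understates changes of low genes, limma gave -0.81, within the fold threshold.

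In atrium-like parts Lin28b was 0.0517, 0.0218 and 1.18 FPKM, so that 2 libraries were nearly without it and replicate 3 was at the level of the embryo. The highest library was 54.1 times the lowest, from 4 to 208 fragments. The log2 fold change against atria was -1.47 (95% interval -4.71 to 1.76, edgeR adjusted p = 0.436) and was decided by that replicate: without it the value was -4.94 (edgeR adjusted p = 0.0171).

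Lin28a, the form typical of ESCs, was low in every group (chr4:134003330-134018816, - strand). Atria of E11.5H had 0.349, 0.571 and 0.243 FPKM, ventricles 0.193, 0.312 and 0.214 FPKM. Atrium-like parts had 0.201, 0.860 and 0.865 FPKM and ventricle-like parts 0.0527, 0.0528 and 0.0930 FPKM. The HO parts did not overlap, from 20 to 101.5 fragments in the former and at most 10.5 in the latter. Of all genes tested between HO parts, 13.3% showed no overlap.

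Mean Lin28a was 9.71 times as high in atrium-like as in ventricle-like parts (log2 difference 3.40, 95% interval 1.42 to 5.39), which edgeR did not call (adjusted p = 0.750) and DESeq2 did (adjusted p = 0.0158). The interaction of chamber and tissue was 2.80 (95% interval 0.75 to 4.85, edgeR adjusted p = 0.315) and was called with DESeq2 (adjusted p = 0.0478). Against the embryo Lin28a was not called in either part, with 0.85 (95% interval -0.82 to 2.52, edgeR adjusted p = 0.383) in atrium-like and -1.97 (95% interval -3.42 to -0.52, edgeR adjusted p = 0.0517) in ventricle-like parts. In HO libraries Lin28a and Lin28b did not follow each other: replicate 2 of the atrium-like parts had the least Lin28b, at 0.0218 FPKM, and 0.860 FPKM of Lin28a.

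Genes that let-7 is known to repress were followed as a separate list of 16 genes with the let-7 processing enzymes. All 16 had a mean of at least 1 FPKM in every group. In atrium-like parts 1 was called higher (Trim71, itself a let-7 target, named after its values were seen) and 3 lower, and in ventricle-like parts none higher and 6 lower, with median log2 fold changes of -0.44 and -0.62. Of all genes tested, 16.0% were called higher and 8.81% lower in atrium-like parts, and 11.6% and 7.35% in ventricle-like parts. Hmga2, a chromatin protein of growing embryonic tissue and the classic let-7 target, had 20.5, 28.4 and 21.5 FPKM in atria and 26.1, 22.55 and 19.0 FPKM in ventricles. It had 7.73, 6.00 and 8.74 FPKM in atrium-like and 3.26, 4.76 and 8.83 FPKM in ventricle-like parts. The log2 fold changes of Hmga2 were -1.45 (SE 0.25, edgeR adjusted p = 0.00925) and -2.10 (SE 0.37, edgeR adjusted p = 0.0113).

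Igf2bp1, an RNA-binding protein of fetal tissues, fell from 26.4 ± 0.715 to 11.51 ± 3.49 FPKM in the atrial and from 26.7 ± 1.88 to 9.72 ± 2.20 FPKM in the ventricular comparison. Its relative Igf2bp3 fell in ventricle-like parts (log2 fold change -1.22, edgeR adjusted p = 0.0447) and had a log2 fold change of -0.40 in atrium-like parts (edgeR adjusted p = 0.382). The difference between these effects, the interaction, was 0.79 with a 95% interval of -0.37 to 1.95. Mycn, a growth regulator of the embryonic ventricle, averaged 19.4 ± 1.55 FPKM in atria against 35.05 ± 1.25 FPKM in ventricles, and 19.0 ± 9.04 and 10.4 ± 5.96 FPKM in the HO parts. It fell in ventricle-like parts (log2 fold change -1.85, edgeR adjusted p = 0.0206). In replicate 3 of the atrium-like parts, where Lin28b was at 1.18 FPKM, Hmga2 and Igf2bp1 were at 8.74 and 15.3 FPKM, below every atrium. Within HOs that library had the most Igf2bp1 and Trim71 (9.09 FPKM). Hmga2 was higher only in replicate 3 of the ventricle-like parts (8.83 FPKM). Igf2bp3 and Mycn were highest in replicate 1 of the atrium-like parts, at 30.2 and 29.2 FPKM. The part of Lin28b in these levels was not tested.

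**Figure D4:**
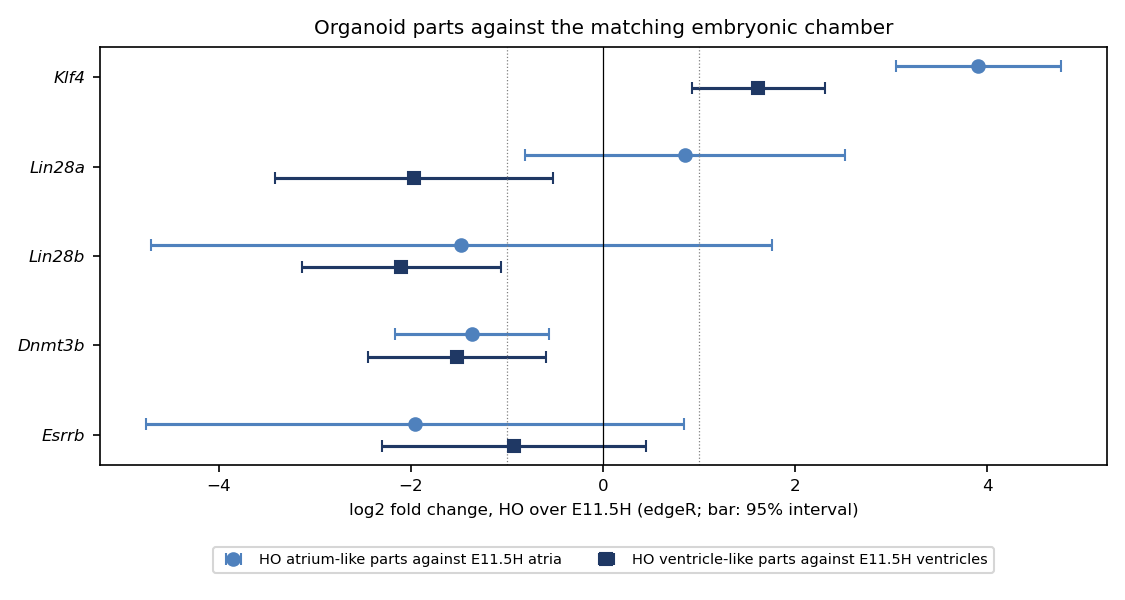
Log2 fold change of 5 genes between HO parts and the matching chamber of E11.5H with its 95% interval (edgeR), positive where HOs are higher; dotted lines mark 1 and -1. Klf4 lies right of 0 and Dnmt3b left of 0 in both parts, Lin28b has an interval of -4.71 to 1.76 in atrium-like parts, and Lin28a lies on either side of 0 in the 2 parts.

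Sall4 was named for its pattern in the embryo, so its levels there are given as a description, with no test (chr2:168748332-168767201, - strand). It had 0, 3 and 0 fragments in the atria of E11.5H and 453, 376 and 424 in the ventricles, which is 0, 0.0176 and 0 FPKM against 2.78, 2.30 and 2.83 FPKM. Per fragment sequenced, the ventricular total of 1253 was 443 times the atrial total of 3, with an exact 95% interval of 151 to 2152 that covers counting error only. All 3 atrial fragments came from replicate 2. The ventricles varied little, with a coefficient of variation of 11.2%.

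In HOs this chamber pattern was not seen. Atrium-like parts had 0.730, 6.48 and 6.05 FPKM and ventricle-like parts 0.217, 0.579 and 4.44 FPKM, so every HO library had more Sall4 than every embryonic atrium. The atrium-like total of 2219 fragments was 807 times the atrial total of 3 (exact 95% interval 276 to 3916, for counting error only), while its libraries ranged from 106 to 1114 fragments. Against ventricles, 2 atrium-like libraries and 1 ventricle-like library were above the embryonic range and the other 3 below it. The parts of HOs overlapped, with a log2 difference of 1.44 (95% interval -1.57 to 4.44, edgeR adjusted p = 0.786). The ventricle-like mean of 1.75 ± 2.34 FPKM rested on replicate 3, since the other libraries were at 0.579 FPKM or less.

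Sall4 is known from fetal liver and endoderm as well, and these markers were compared beside it. The hepatoblast and visceral endoderm list had mean log2 CPM values of 8.40, 4.56 and 8.07 in atrium-like and 3.43, 0.91 and 7.40 in ventricle-like parts. Replicate 3 of either part was high for the list and for Sall4, while replicate 1 of the atrium-like parts had the highest list value and 0.730 FPKM of Sall4. Afp, the main protein of that tissue, was at 3741 FPKM in that library and at 78.6 FPKM in replicate 2, which had the most Sall4. In ventricles of E11.5H Afp was at 0.777 FPKM or less, where Sall4 was at 2.30 to 2.83 FPKM. The part of endodermal or germ cells in the level of Sall4 was not tested.

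Other members of the Sall family shared part of the embryonic pattern. Sall1 had 2.05, 1.38 and 2.65 FPKM in atria and 4.52, 3.85 and 4.42 FPKM in ventricles, a log2 difference of -1.14 (SE 0.22, edgeR adjusted p = 0.00665). Sall3 had 0.665, 0.703 and 0.432 FPKM in atria and 2.24, 2.59 and 2.04 FPKM in ventricles, a log2 difference of -2.00 (SE 0.22, edgeR adjusted p = 0.000256). Both were called lower in atria, where 4.90% of all genes tested were called in either direction and none of the 6 members tested besides Sall4 was. Sall2 went the other way, with 2.72, 4.36 and 4.72 FPKM in atria against 2.67, 2.66 and 1.87 FPKM in ventricles, but was not called (log2 difference 0.64, edgeR adjusted p = 0.0758).

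In HOs Sall3 was at 0, 0.0639 and 0.115 FPKM in atrium-like and 0, 0.172 and 0.0312 FPKM in ventricle-like parts. Ventricle-like parts had a log2 fold change of -5.18 (SE 1.29, edgeR adjusted p = 0.0295) against ventricles. With 0, 39 and 7 fragments in ventricle-like parts, Sall3 passed the filter on low counts only through the ventricles and could only be called lower. Sall1 had 1.35, 2.08 and 1.62 FPKM in atrium-like and 0.455, 2.22 and 1.58 FPKM in ventricle-like parts, and was not called against either chamber (edgeR adjusted p = 0.809 and 0.0579). Sall2 had 0.786, 2.36 and 1.14 FPKM in atrium-like parts, called lower than in atria (log2 fold change -1.34, edgeR adjusted p = 0.0487), and 2.52, 2.84 and 2.28 FPKM in ventricle-like parts.

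**Figure D5:**
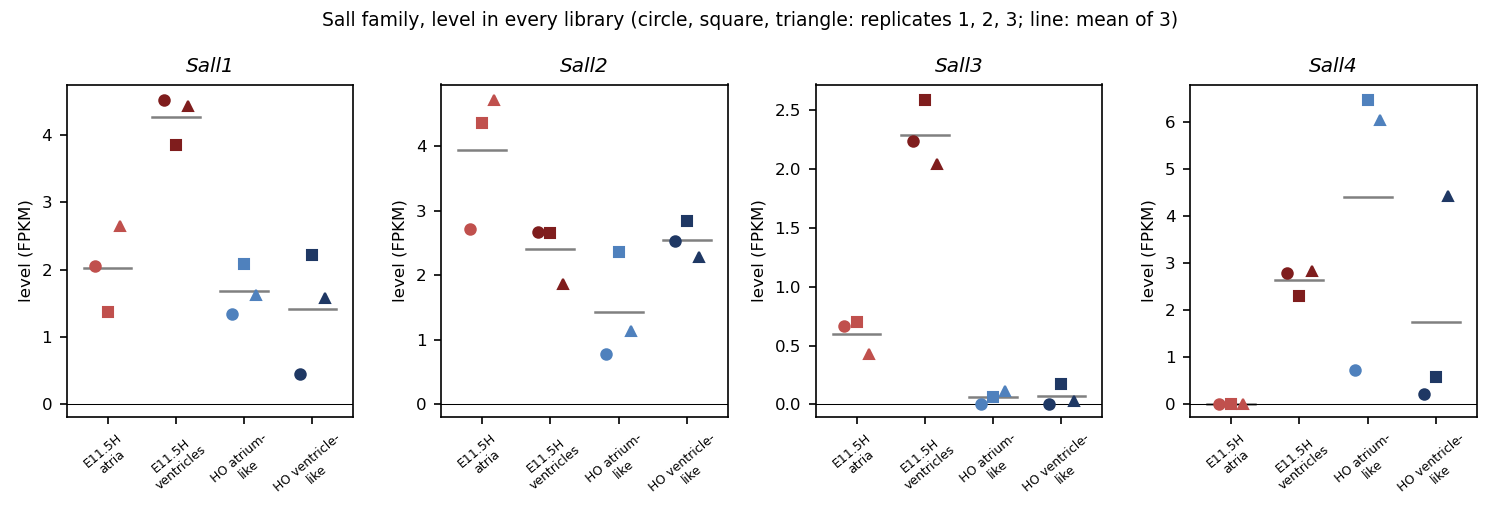
Level of Sall1, Sall2, Sall3 and Sall4 in FPKM (linear axes that differ between panels) in each of the 12 libraries, with a line at the mean of 3. Sall1, Sall3 and Sall4 are higher in the 3 ventricles than in the 3 atria of E11.5H, and in HOs Sall3 stays at or below 0.172 FPKM while Sall4 ranges from 0.217 to 6.48 FPKM.

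Sall4 acts with the NuRD complex, a chromatin remodeler and histone deacetylase. All 11 of its genes had a mean of at least 1 FPKM in every group. None was called between chambers, where 4.90% of all genes were in E11.5H and 0% in HOs. Against the embryo 1 of the 11 was called higher in atrium-like parts, where 16.0% of all genes were, and none in ventricle-like parts. This was Rbbp7, a histone-binding subunit, at 472 ± 147 FPKM in atrium-like parts and 257 ± 16.6 FPKM in atria (log2 fold change 1.07, edgeR adjusted p = 0.0367).

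Genes with the most similar profiles over the 12 libraries were sought for 5 members. For Klf4 they were Slc26a2 (root mean square difference 0.37), Rhox5 (0.39) and BC016579 (0.40), against a standard deviation of 1.53 for the Klf4 profile itself. Rhox5, a homeobox gene of extraembryonic tissue and testis, had 47.2, 54.5 and 81.6 FPKM in atrium-like and 16.7, 34.5 and 19.4 FPKM in ventricle-like parts, and 5.90 to 7.83 FPKM in E11.5H. For Lin28b they were Bmp4 (0.54), Acvr2b (0.58) and Ppargc1a (0.58), against 1.37 for its own profile. For Lin28a they were Slc16a1 (0.48), Hmgn5 (0.49) and Fbln1 (0.52), against 0.82. Sall4 had no close match, since the nearest, Ntn4, Penk and Lyz1, differed by 1.38, 1.39 and 1.46 against a standard deviation of 2.33.

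By mean level in FPKM, the order in embryonic ventricles was Sall4, Klf4, Dnmt3b, Lin28b, Esrrb, Lin28a and Nanog, and in atria Dnmt3b, Klf4, Lin28b, Lin28a, Esrrb and Nanog. In ventricles Sall4 lay above Klf4 within every library, though their ranges overlapped. Klf4 overlapped Dnmt3b, while Dnmt3b lay above Lin28b and Lin28b above Esrrb in every library. In atria Dnmt3b lay above Klf4 in every library and Klf4 overlapped Lin28b. In HOs Klf4 led in every library, from 4.95 to 33.1 FPKM, and Sall4 came second in 5 of 6. Of the 9 genes, Pou5f1 had at most 5 fragments in any library, and Zfp42 was at 0 in the embryo and detected in 3 of 6 HO libraries. In HOs after 13 days Nanog had at most 9 fragments, Esrrb and Lin28a stayed below 1 FPKM, and Klf4 and Sall4 had means above 1 FPKM in both parts.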

How the data were processed

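RNA-seq of 12 libraries was analysed, 3 biological replicates in each of 4 groups that follow the sample labels. The authors aligned reads with STAR to mm10 (GRCm38), as the submitters' processing notes state, and deposited estimated counts (expected counts) and FPKM per gene, in which 23.8% of the count values were not whole. The counting tool and whether strand was used are not given in the sources used here. Totals of 23971258 to 30540993 fragments limit the precision, and intervals on counts cover counting error only.

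Expected counts were rounded and tested with the quasi-likelihood test of edgeR 4.0.16 (R 4.3.3), with TMM scaling, filterByExpr at a minimum count of 10, and Benjamini-Hochberg adjustment over all genes tested. Each comparison of 2 groups used its own 6 libraries, and the interaction of chamber and tissue used all 12. Genes were called at an adjusted p below 0.05 and a log2 fold change beyond 1. Alternatives were DESeq2 1.42.0, limma 3.58.1 on log2(FPKM + 1) and log2(FPKM + 0.1), other scalings and filters, a replicate block and leaving out each library. The procedures were tested on simulated data. Marker levels are means of log2(CPM + 0.5). Figures were drawn with matplotlib 3.10.9.

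The 9 genes and the gene lists were chosen with earlier results of these data known. All 9 were named, with at most 4 called genes of each other list, those of highest mean FPKM in any group, all 3 of the Sall family, and the 3 genes most alike to each of 5 members. Sall4 was named for its embryonic pattern, so no p is given for it in comparisons that hold embryonic samples. Promoter and microRNA sequences are from RefSeq (GRCm38.p6). The result of 1 gene of the primed epiblast list is not reported here.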

Additional observations from a re-analysis of the deposited data

How the results depend on the processing

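The number of genes called between E11.5H chambers (712) was 386 with limma on log2(FPKM + 1), 30 with all 12 libraries in 1 fit and 1982 with no threshold on the fold change. Between HO parts DESeq2 called 72 genes and 2 members, against 0. Against the embryo, limma on log2(FPKM + 1) called 1 member in either part, and with no threshold on the fold change 4462 genes were called in ventricle-like parts. Leaving out 1 library gave 1662 to 5495 genes and 1 to 2 members in atrium-like parts, and 1116 to 3725 genes and 0 to 3 members in ventricle-like parts. For the interaction DESeq2 called 461 genes and 2 members, limma 89 genes with a pseudocount of 1 and 45 with 0.1. The causes were not tested.

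Directions turned only for values that were not called. Lin28b between E11.5H chambers was 0.0129 with total counts only and -0.20 to 0.0717 without 1 library, and Nanog -0.44 to 0.18. Lin28b between HO parts was -0.54 with limma on log2(FPKM + 0.1), -1.29 with the replicate block and -2.89 to 1.08 without 1 library. In the interaction, Dnmt3b was -0.0876 with total counts only, -0.12 and -0.0897 with limma (pseudocounts 1 and 0.1), Esrrb 0.0127 with limma (pseudocount 1) and Lin28b -0.52 with limma (0.1). Total counts only moved the median log2 difference of all genes from -0.03 to -0.17 between HO parts and from -0.03 to -0.28 in the interaction. Across these alternatives 367 values of single genes kept their direction and side of the threshold, 19 lost a call, 6 gained one, 12 turned and 12 moved by other amounts.

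Whether HO parts with the same replicate number came from the same HOs is not given in the sources used here, and the main tests did not pair them. Same-number correlations between HO parts were -0.042, 0.62 and 0.398. Replicates 2 and 3 of the atrium-like parts correlated best with their own number, and replicate 1 with replicate 3 of the ventricle-like parts (0.498). These values do not settle whether the parts were paired. With the replicate block 1 member was called in either HO part, Klf4, with edgeR adjusted p-values of 0.00957 and 0.0450.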
